A study of Mus musculus with 6 samples.

Results

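The insulin and growth hormone-IGF axis was examined in primary murine hepatocytes as 10 genes listed by name: Igf1, Igfals, Igfbp1, Igfbp2, Igfbp3, Igfbp4, Ghr, Insr, Irs1 and Irs2. All 10 were present among the 41388 genes of the deposited expression table, and all 10 passed the filter on low values that left 12693 genes for testing. Hepatocytes of C57BL/6J mice were isolated by collagenase digestion, kept overnight in growth medium and exposed for 24 h to adenovirus at about 1000000 viral particles per 1000000 cells. The control virus carried beta galactosidase (β-gal, replicates 1, 2 and 3) and the other virus ALOXE3 (Aloxe3, replicates 7, 8 and 9), an epidermal-type lipoxygenase, so every culture had received a virus (n = 3 libraries per group). The sources used here do not give the promoter that drives each virus, or the sex, age and number of the donor mice. Expression is given as RPKM, the reads assigned to a gene per kilobase of its exons and per 1000000 reads of the library, which allows levels to be compared between genes.

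Growth hormone binds its receptor on hepatocytes and, through JAK2 and STAT5, drives production of insulin-like growth factor 1, most of which circulates in a ternary complex with IGF binding protein 3 and the acid-labile subunit. The other binding proteins hold IGFs in smaller complexes and limit or prolong their access to receptors. Insulin acts on the same cell through its receptor and the adaptors IRS1 and IRS2, and it represses some genes of this list, of which Igfbp1 is the textbook case.

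The promoters are shown first because 3 of the genes hold letters of an insulin response motif and 1 holds a STAT5 motif. RefSeq promoter windows (GRCm38.p6, 250 bases before to 50 after a start site) were found for 9 of the 10 genes (all but Insr), in 13 windows. The letters searched, on either strand, were CAAAACA for the insulin response motif, GTAAACA for a forkhead motif and TTCNNNGAA for STAT5. N stands for any base, and none of the matches in these windows overlapped another. The sequences are written 5′ to 3′ on the strand of the gene, with each match in capitals. The first 2 sequences belong to the binding protein genes among the 10 that had higher means in Aloxe3 cells. They are the 250 bases upstream of Igfbp1 (chr11:7197537-7197786, forward strand) and of Igfbp4 (chr11:99040994-99041243, forward strand). The others are stretches around the matches upstream of Irs1 (chr1:82291450-82291562, reverse strand), Irs2 (chr8:11008945-11008978, reverse strand) and Igfals (chr17:24878161-24878194, forward strand, the match nearer to its start site).
Igfbp1: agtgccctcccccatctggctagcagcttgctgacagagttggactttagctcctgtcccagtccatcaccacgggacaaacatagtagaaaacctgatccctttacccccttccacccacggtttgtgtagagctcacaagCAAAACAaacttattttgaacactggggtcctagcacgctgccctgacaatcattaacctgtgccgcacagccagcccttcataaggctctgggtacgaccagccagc
Igfbp4: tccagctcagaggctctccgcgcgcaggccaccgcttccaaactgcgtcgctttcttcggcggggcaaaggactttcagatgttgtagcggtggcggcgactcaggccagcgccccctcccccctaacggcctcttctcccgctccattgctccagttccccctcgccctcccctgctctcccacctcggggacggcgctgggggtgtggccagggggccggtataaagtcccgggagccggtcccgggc
Irs1: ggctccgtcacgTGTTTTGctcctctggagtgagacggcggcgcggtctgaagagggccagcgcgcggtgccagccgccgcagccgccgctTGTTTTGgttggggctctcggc
Irs2: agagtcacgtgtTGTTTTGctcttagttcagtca
Igfals: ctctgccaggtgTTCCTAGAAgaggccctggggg

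The insulin response motif was present once upstream of Igfbp1, with its first base 108 bases before the start site. It was present 2 times upstream of Irs1 (111 and 32 bases before the start site) and once upstream of Irs2 (37 bases before), in both in the reverse orientation. These were 3 of the 13 windows, while 6.28% of all 32851 promoter windows held it. The STAT5 motif was found in 2 of the 13 windows, both of Igfals, against 8.3% of all windows. The forkhead motif was found in 1 of the 13, also of Igfals, against 3.65% of all windows. The 250 bases shown for Igfbp4 held none of the motifs. A match describes the letters of the window and was not tested as a binding site.

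The groups matched their labels, with Aloxe3 at 2.04, 2.06 and 1.74 RPKM in the β-gal libraries and at 42.3, 45.8 and 56.3 RPKM in the Aloxe3 libraries (log2 difference 4.05 with an SE of 0.10 by limma, adjusted p = 4.74e-06). The reads assigned to the mouse gene were counted here, also if the virus carried another species' sequence. The depth was 29575553 to 32431318 reads in the β-gal libraries and 25521908 to 30399198 in the Aloxe3 libraries, and the 10 genes had between 151 and 8646 reads per library. Of the hepatocyte markers, Alb was at 4362 to 4552 RPKM, while Cps1 (urea cycle) was at 0.915 to 1.05 RPKM with β-gal and 1.29 to 1.64 RPKM with Aloxe3, and Tat (tyrosine breakdown) at 0.193 to 0.346 and 0.438 to 0.661 RPKM. Serpina1a (51.5 to 53.5 against 47.9 to 48.5 RPKM) and Apoa1 (241 to 246 against 218 to 235 RPKM), which encode secreted plasma proteins, were lower with Aloxe3 without overlap, and none of these markers passed the adjusted threshold. Genes usually read as cholangiocyte markers were abundant, led by Spp1 at 1431 to 1638 RPKM. The Kupffer list summed to 152 to 156 RPKM with β-gal and to 133 to 147 RPKM with Aloxe3, most of it Cd68. The hepatocyte list summed to 5080 to 5114 against 4908 to 5071 RPKM, again without overlap. Most of that sum was Alb, whose own groups overlapped (log2 difference -0.03, SE 0.05, limma adjusted p = 0.855). Its members went both ways, and 19.9% of all tested genes had groups without overlap. The other sums overlapped between the groups. They were 26.0 to 30.1 against 25.9 to 30.0 RPKM (endothelial) and 5.41 to 5.89 against 5.26 to 5.50 RPKM (stellate). The cholangiocyte list summed to 1509 to 1593 against 1577 to 1716 RPKM. Above the filter on low values were 7 of 8 hepatocyte, 5 of 8 Kupffer, 5 of 7 endothelial, 4 of 8 stellate and 3 of 5 cholangiocyte markers. Lrat was at 0 in every library, and Clec4f, Vsig4, Timd4, Clec4g, Des, Reln, Pdgfrb, Krt7 and Epcam were below 0.5 RPKM in each. The part of other cell types in the values that follow was not tested. Aloxe3 replicate 9 differed most from its group. Its read counts gave chi-square values, divided by their degrees of freedom, of 8.99 and 9.82 against replicates 7 and 8, where the other pairs of replicates gave 3.47 to 5.46. Without it the log2 fold change was 0.27 for Igfbp4, 0.22 for Igfbp1 and -0.18 for Igfbp2, and none of the 10 genes passed the adjusted threshold.

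The mean RPKM was 25.7% higher in Aloxe3 than in β-gal cells for Igfbp4, 23.6% for Irs1, 18.4% for Igfbp1 and 7.59% for Irs2. That of Igfbp2 differed by -15.0%, and the means of Igf1, Igfals, Igfbp3, Ghr and Insr differed by less than 5%. None of the 10 genes passed an adjusted p of 0.05 (limma on log2(RPKM + 1), Benjamini-Hochberg over all 12693 tested genes), and 0.394% of all tested genes did (0.355% higher and 0.0394% lower with Aloxe3). At an unadjusted p of 0.05 the count was 3 of 10 (Igfbp1, Igfbp2 and Igfbp4), or 30%, beside 12.7% of all tested genes. With voom, an alternative that weights the reads derived from the RPKM values, 1 of the 10 passed the adjusted threshold, Igfbp4, beside 1.37% of all genes. The groups did not overlap for 4 of the 10, Igfbp2 (lower with Aloxe3) and Igfbp4, Irs1 and Irs2 (higher), or 40%, beside 19.9% of all tested genes (11.2% higher and 8.71% lower). The median log2 fold change was 0.05 for the 10 genes and 0.00 for all tested genes, and 6 of the 10 were above 0 beside 52.4% of all tested genes. With 3 libraries against 3, the smallest two-sided p that exact permutation can give for any of these genes is 0.1. In bulk RNA, fewer cells of a type and less RNA per cell cannot be told apart.

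**Figure D1:**
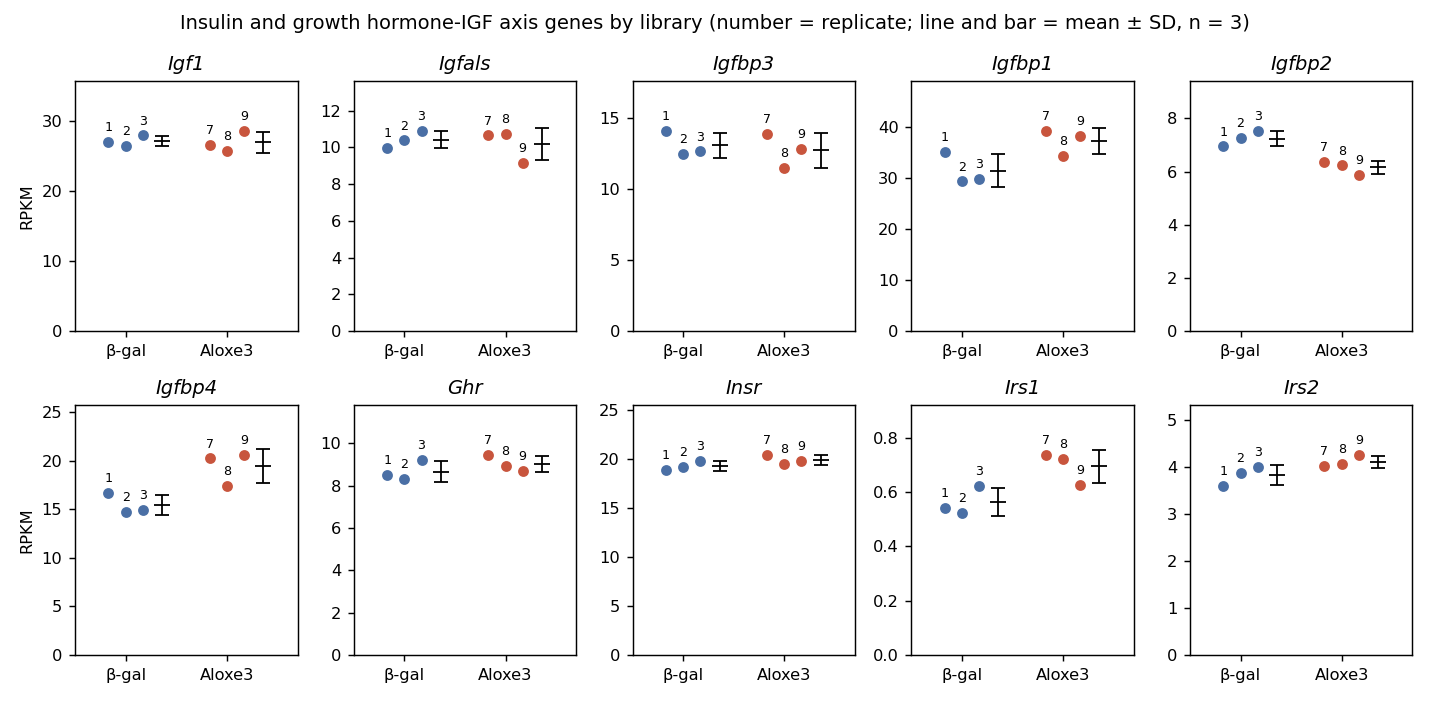
RPKM (y axis, from 0) of the 10 genes in each of the 6 libraries, with β-gal in blue and Aloxe3 in red, the replicate number above each point and the mean ± SD (n = 3) beside it. The groups are separate for Igfbp2, Igfbp4, Irs1 and Irs2, and for Igfbp1 they overlap only through β-gal replicate 1 and Aloxe3 replicate 8.

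Igf1, the ligand (chromosome 10, 87858265 to 87937042, forward strand), was at 27.1, 26.5 and 28.0 RPKM in the β-gal libraries and at 26.6, 25.7 and 28.6 RPKM in the Aloxe3 libraries. The highest and the lowest value of all were both from Aloxe3 cells, and the groups overlapped. The means were 27.2 ± 0.75 and 27.0 ± 1.5 RPKM (SD, n = 3 each), and the fitted log2 difference was -0.01 with an SE of 0.05 (limma, adjusted p = 0.939), with a 95% interval of the difference from -0.12 to 0.10. Its sign turned when β-gal replicate 3 (0.0089) or Aloxe3 replicate 8 (0.020) was left out. Genes on the opposite strand overlap Igf1 (Igf1os, 0.149 RPKM on average), Insr (Gm16180, 0.220 RPKM), Irs2 and Irs1 (both under 0.1 RPKM), and the library protocol describes no step that marks the strand, so the values of these pairs are uncertain where their exons overlap.

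Igfals, which encodes the acid-labile subunit (chromosome 17, 24865997 to 24882010, forward strand), was at 9.97, 10.4 and 10.9 RPKM with β-gal and at 10.7, 10.7 and 9.16 RPKM with Aloxe3. Only Aloxe3 replicate 9 lay outside the range of the β-gal libraries, below it. The fitted log2 difference was -0.03 with an SE of 0.06 (limma, adjusted p = 0.869; 95% interval -0.18 to 0.12), and it was 0.035 without that library. Igfbp3, the binding protein of the ternary complex (chromosome 11, 7206086 to 7213923, reverse strand), was at 14.1, 12.5 and 12.7 RPKM with β-gal and at 13.9, 11.5 and 12.8 RPKM with Aloxe3. The groups overlapped, with a fitted log2 difference of -0.04 and an SE of 0.07 (limma, adjusted p = 0.863; 95% interval -0.21 to 0.13). The sign turned when β-gal replicate 1 (0.013) or Aloxe3 replicate 8 (0.029) was left out. For the 3 genes of the ternary complex no interval extended beyond a change of 0.21 on the log2(RPKM + 1) scale in either direction.

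The 3 other binding proteins had the lowest unadjusted p of the 10 genes. Igfbp4 (chromosome 11, 99041244 to 99054392, forward strand) encodes a binding protein that mainly restrains IGF action and is cut by the protease PAPP-A. It was at 16.7, 14.7 and 15.0 RPKM in the β-gal libraries and at 20.2, 17.4 and 20.6 RPKM in the Aloxe3 libraries. Each Aloxe3 library lay above each β-gal library, and the gap was narrowest between β-gal replicate 1 and Aloxe3 replicate 8. The means were 15.4 ± 1.1 and 19.4 ± 1.7 RPKM (SD, n = 3 each), a difference of 25.7%. The log2 fold change, a difference of log2(RPKM + 1) except where voom or another pseudocount is named, was 0.31 (SE 0.07, 95% interval 0.14 to 0.48) with an adjusted p of 0.184 from limma, which did not pass the threshold. With voom it was 0.33 (SE 0.07, adjusted p = 0.0197), and voom was the only 1 of 13 alternatives to give an adjusted p under 0.05 (range 0.0197 to 0.501).

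Igfbp1 (chromosome 11, 7197782 to 7202546, forward strand) encodes the binding protein that varies most with feeding in the circulation, being repressed by insulin. It was at 35.1, 29.3 and 29.9 RPKM with β-gal and at 39.2, 34.3 and 38.3 RPKM with Aloxe3. The groups overlapped because β-gal replicate 1 exceeded Aloxe3 replicate 8. The means were 31.4 ± 3.2 and 37.2 ± 2.6 RPKM (SD, n = 3 each), a difference of 18.4%. The log2 fold change was 0.24 (SE 0.08, 95% interval 0.06 to 0.42) with an adjusted p of 0.291 from limma, and it ranged from 0.19 to 0.32 in the fits that left out 1 library. Igfbp1 and Igfbp3 lie end to end with 3539 bases between them, and only for Igfbp1 did the unadjusted 95% interval lie above 0; the difference between these genes was not tested.

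Igfbp2 (chromosome 1, 72824503 to 72852474, forward strand), whose product is abundant in fetal serum and raised in fasting, was at 6.95, 7.26 and 7.52 RPKM with β-gal and at 6.36, 6.23 and 5.88 RPKM with Aloxe3. All Aloxe3 libraries lay below all β-gal libraries. The means were 7.24 ± 0.29 and 6.16 ± 0.25 RPKM (SD, n = 3 each). The log2 fold change was -0.20 (SE 0.05, 95% interval -0.31 to -0.09), with an adjusted p of 0.18 from limma (0.105 to 0.496 in the alternatives). It was the smallest unadjusted p among the 10 genes, with 287 to 435 reads per library.

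The spread within groups was described for 5 genes picked after their values were seen. Igfbp1, Igfbp3 and Igfbp4 deviated from their group means in the same direction in all 6 libraries. Within a group the deviations of a gene sum to 0, so the signs in the 6 libraries are not independent. These genes lay above the mean in β-gal replicate 1 and Aloxe3 replicates 7 and 9, and below it in the others. In Aloxe3 replicate 8 the deviations were -0.11 for Igfbp1, -0.13 for Igfbp3 and -0.14 for Igfbp4 on the log2(RPKM + 1) scale, and in β-gal replicate 1 they were 0.16, 0.10 and 0.10. Igfals and Igfbp2 deviated the other way in β-gal replicates 1 and 3 and in Aloxe3 replicates 8 and 9, and Igfbp2 also in β-gal replicate 2, by 0.0037. All 6 libraries came from a single sequencing run, and the source of this shared spread was not tested.

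**Figure D2:**
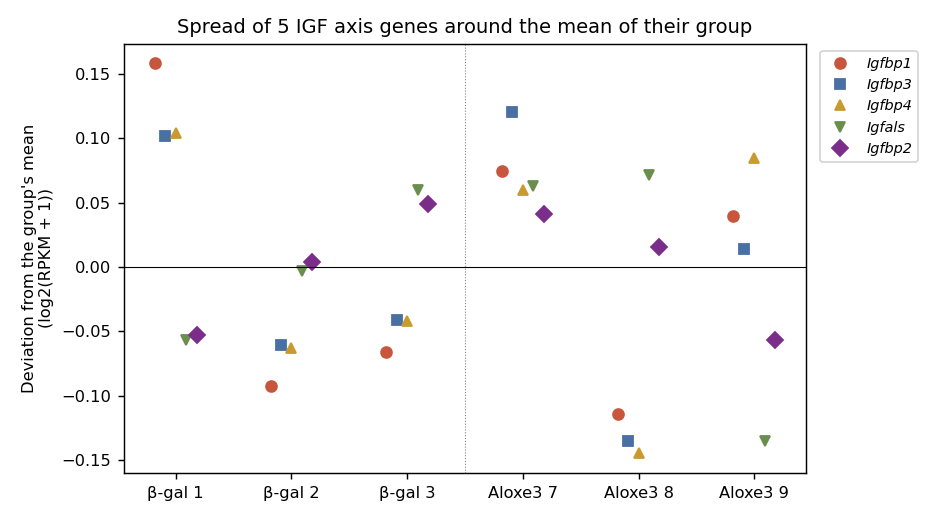
Deviation of 5 genes from the mean of their own group in each library (y axis, log2(RPKM + 1); x axis, library), with 1 symbol per gene. Igfbp1, Igfbp3 and Igfbp4 move together, between -0.14 and 0.16, and Igfals lies on the other side of 0 in 4 and Igfbp2 in 5 of the 6 libraries.

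The makeup of the binding proteins was described as the share of each in the summed RPKM of Igfbp1 to Igfbp7. The sum was 109, 99.7 and 99.6 RPKM in the β-gal libraries and 115, 102 and 117 RPKM in the Aloxe3 libraries, so that the groups overlapped. Igfbp1 and Igfbp7 were the most abundant, at 30.6% ± 1.5 and 34.3% ± 1.5 of the sum with β-gal and at 33.4% ± 0.65 and 32.0% ± 1.4 with Aloxe3 (SD, n = 3 each). The share of Igfbp1 was 29.4% to 32.3% in the β-gal libraries and 32.7% to 34.0% in the Aloxe3 libraries, without overlap and with the largest difference of the 7, 2.80 percentage points. Igfbp4 took 15.3%, 14.8% and 15.0% in the β-gal libraries and 17.5%, 17.0% and 17.6% in the Aloxe3 libraries, a difference of 2.35 percentage points with groups that did not overlap. The share of Igfbp3 was 12.7% ± 0.23 with β-gal and 11.4% ± 0.57 with Aloxe3, and that of Igfbp2 7.08% ± 0.60 and 5.54% ± 0.53 (SD, n = 3 each), and in both all Aloxe3 libraries lay below all β-gal libraries. Igfbp5 and Igfbp6 together were under 0.5% in each library. Shares of 1 sum are not independent, and they were not tested.

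**Figure D3:**
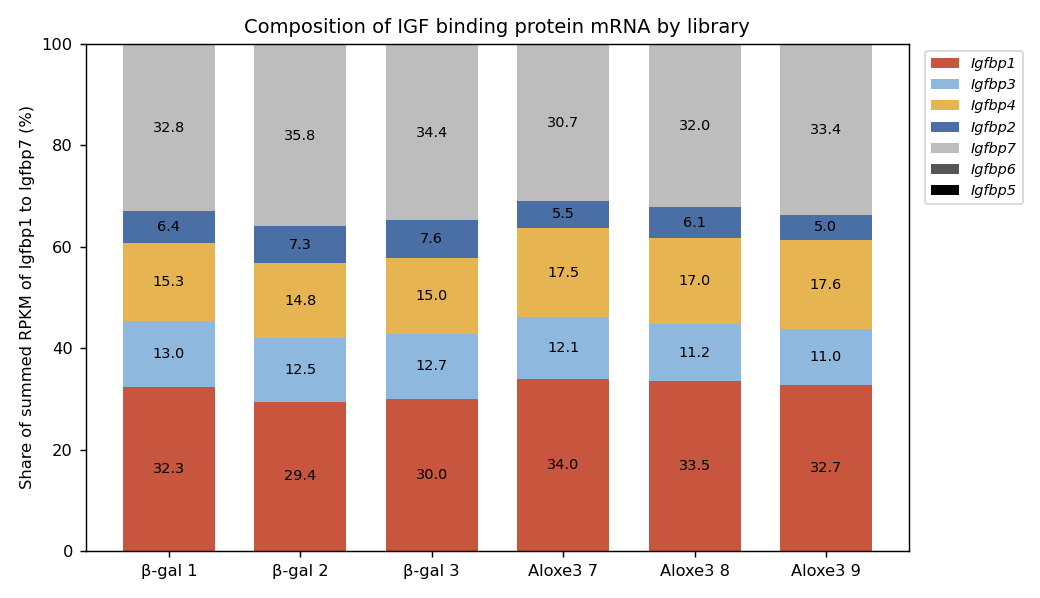
Stacked bars from 0 to 100% of the share of each of Igfbp1 to Igfbp7 in their summed RPKM (y axis) for each library (x axis). The Igfbp4 band is 14.8% to 15.3% in the β-gal libraries and 17.0% to 17.6% in the Aloxe3 libraries, and the Igfbp2 band is 6.40% to 7.55% and 5.03% to 6.09%.

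Ghr, the growth hormone receptor gene (chromosome 15, 3317760 to 3583492, reverse strand), was at 8.50, 8.30 and 9.21 RPKM with β-gal and at 9.47, 8.95 and 8.71 RPKM with Aloxe3. The groups overlapped, and the fitted log2 difference was 0.05 with an SE of 0.05 (limma, adjusted p = 0.689; 95% interval -0.06 to 0.17). The Ghr value was 0.028 without β-gal replicate 2, 0.025 without Aloxe3 replicate 7 and 0.095 without β-gal replicate 3. Insr, the insulin receptor gene (chromosome 8, 3122061 to 3279617, reverse strand), was at 18.9, 19.2 and 19.8 RPKM with β-gal and at 20.4, 19.5 and 19.8 RPKM with Aloxe3. Its groups overlapped as well, with a fitted log2 difference of 0.04 and an SE of 0.04 (limma, adjusted p = 0.665), and its 95% interval from -0.04 to 0.13 was the narrowest of the 10 genes. Leaving out β-gal replicate 1 or Aloxe3 replicate 7 gave 0.028 and 0.025.

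The adaptor genes were the least abundant of the list. Irs2, the adaptor that insulin itself represses in liver (chromosome 8, 10984681 to 11008458, reverse strand), was at 3.60, 3.88 and 4.02 RPKM with β-gal and at 4.03, 4.07 and 4.27 RPKM with Aloxe3. The groups did not overlap, but β-gal replicate 3 and Aloxe3 replicate 7 lay next to each other. The fitted log2 difference was 0.09 with an SE of 0.05 (limma, adjusted p = 0.527; 95% interval -0.03 to 0.20), and it was 0.049 without β-gal replicate 1. Irs1 (chromosome 1, 82233101 to 82291416, reverse strand) was at 0.542, 0.523 and 0.621 RPKM with β-gal and at 0.737, 0.723 and 0.625 RPKM with Aloxe3, and again β-gal replicate 3 and Aloxe3 replicate 9 were nearly level. Its mean was 0.562 ± 0.052 and 0.695 ± 0.061 RPKM (SD, n = 3 each), which is 23.6% higher with Aloxe3. At this low level the added pseudocount of 1 shrinks the log2 fold change to 0.12 (SE 0.07, adjusted p = 0.515 from limma), against 0.26 with a pseudocount of 0.1 and 0.31 with voom, neither past the threshold (adjusted p = 0.532 and 0.218). It rests on 151 to 201 reads per library.

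**Figure D4:**
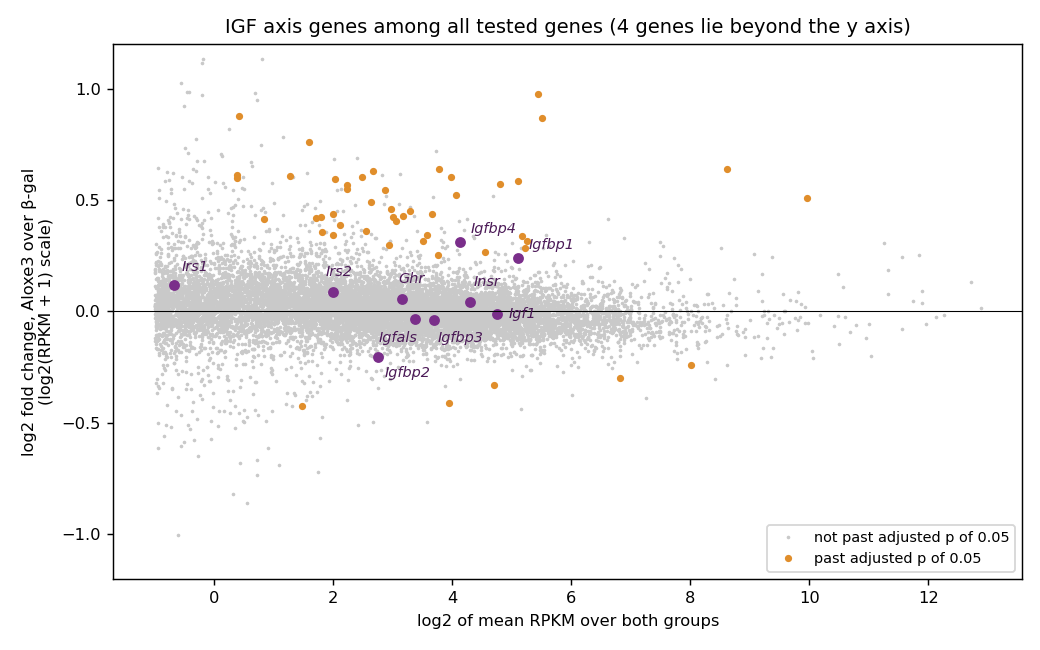
Log2 fold change on the log2(RPKM + 1) scale (y axis) against the log2 of the mean RPKM (x axis) for the 12693 tested genes, with genes past an adjusted p of 0.05 in orange and the 10 IGF axis genes labelled in purple (4 other genes lie beyond the y axis). Igfbp4 and Igfbp1 lie at 0.31 and 0.24 and Igfbp2 at -0.20, and the other 7 lie between -0.04 and 0.12.

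In β-gal cells the order of the levels, from the highest, was Igfbp1, Igf1, Insr, Igfbp4, Igfbp3, Igfals, Ghr, Igfbp2, Irs2 and Irs1, and no neighbours in this order overlapped in their 3 libraries. The order by means was the same in Aloxe3 cells. There Insr (19.9 ± 0.48 RPKM) and Igfbp4 (19.4 ± 1.7 RPKM) overlapped, as did Igfals (10.2 ± 0.88 RPKM) and Ghr (9.04 ± 0.39 RPKM; SD, n = 3 each). Igfbp1 exceeded 86.8% of the tested genes in mean RPKM over all libraries and Igf1 82.9%, while Irs1 exceeded 4.73%.

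The genes with the profile most like that of Igf1 over the 6 libraries, among 7365 genes averaging 5 RPKM or more, included Cyb5r3 (Pearson r = 0.979) and Palld (0.970). For Igfbp1 they were Rrm2 (0.988), Atp10a (0.988) and Haus4 (0.985). These rest on 6 points from the same libraries, and 37 of the 7365 genes had an r above 0.9 with Igf1 and 54 with Igfbp1.

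Another 106 genes of the same pathways were read in 7 lists written by hand, of which 86 passed the filter on low values. None passed the adjusted threshold, while 17 had an unadjusted p under 0.05, 11 of them higher and 6 lower with Aloxe3. Over all tested genes these shares were 7.31% higher and 5.42% lower. With voom 2 of them passed, Ahsg and Onecut1, the latter in the tested set only through its level in Aloxe3 cells. Named are genes among the 3 with the smallest p in each list, and a few others picked after their values were seen.

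Of the 12 other IGF ligands, receptors, binding proteins and proteases, 4 were tested and 8 were below the filter. Igf2r, which clears IGF2 and sorts lysosomal enzymes, averaged 58.7 ± 0.48 RPKM in β-gal cells and 57.3 ± 3.5 in Aloxe3 cells, and Igf1r, the signaling receptor of IGF1, averaged 1.45 ± 0.14 and 1.57 ± 0.079 RPKM (SD, n = 3 each). Igf2, a fetal growth factor, had 2 to 9 reads per library, and Igfbp5 0 to 3. The serine protease gene Htra1 had a fitted log2 difference of 0.14 with an SE of 0.06 (limma, adjusted p = 0.388), the largest of the 4, whose median was 0.05.

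In growth hormone receptor signaling, 13 of 14 genes were tested, with 2 higher and 2 lower at an unadjusted p of 0.05 and a median log2 fold change of 0.01. Cish, a feedback inhibitor induced by STAT5, was at 4.41, 4.28 and 4.17 RPKM with β-gal and at 3.71, 3.66 and 3.73 RPKM with Aloxe3. The groups were separate, with a fitted log2 difference of -0.17 and an SE of 0.04 (limma, adjusted p = 0.214). Sirpa, a receptor that recruits phosphatases, was at 0.17 (SE 0.04, adjusted p = 0.214), and Ptpn11, the phosphatase SHP-2, at -0.09 (SE 0.03, adjusted p = 0.348). Socs2, the other classic feedback inhibitor of this receptor, was at 2.07 ± 0.18 and 2.07 ± 0.22 RPKM (SD, n = 3 each).

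Among 17 growth hormone-regulated liver genes 10 were tested. Onecut1, a liver transcription factor, was at 0.460, 0.442 and 0.518 RPKM with β-gal and at 1.08, 0.824 and 1.08 RPKM with Aloxe3. All Aloxe3 libraries lay above all β-gal libraries, and the log2 fold change was 0.43 (SE 0.08) with an adjusted p of 0.0869 from limma. With a mean of 0.473 RPKM in β-gal and 0.992 RPKM in Aloxe3 cells, it passed the filter at a mean of 0.5 RPKM only through the Aloxe3 libraries. With voom it was 1.05 (SE 0.16, adjusted p = 0.00232), and the alternatives gave adjusted p values from 0.00232 to 0.332. Bcl6, a repressor that opposes STAT5, was at 0.11 (SE 0.05, adjusted p = 0.421), and the urinary protein gene Mup1 at -0.22 (SE 0.10, adjusted p = 0.423 from limma). Only unique reads were counted, so reads shared by near-identical Mup copies may be missing. The more abundant Mup3 averaged 1392 ± 43 RPKM with β-gal and 1331 ± 49 with Aloxe3, and Mup20 138 ± 1.7 and 141 ± 5.6 (SD, n = 3 each). For Mup1, Mup3 and Mup20 the groups overlapped. The sex-specific genes A1bg and Sult3a1 were at 0 in every library, which allows up to 3 reads each.

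All 27 genes of insulin signal transduction were tested, with 1 higher and 2 lower at an unadjusted p of 0.05 and a median log2 fold change of 0.00. Mapkap1, a subunit of mTORC2, was at -0.12 (SE 0.04, adjusted p = 0.313), and Map2k2, a kinase of the ERK cascade, at -0.10 (SE 0.04, adjusted p = 0.367 from limma). Foxo1, the transcription factor that insulin excludes from the nucleus, was at 7.13 ± 0.31 and 7.19 ± 0.31 RPKM, and Akt2, the main AKT kinase of insulin action in liver, at 11.5 ± 0.17 and 11.9 ± 0.45 RPKM (SD, n = 3 each).

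All 16 inhibitors of insulin signaling and genes of insulin clearance were tested, and none passed the adjusted threshold with limma. At an unadjusted p of 0.05, 4 were higher and 0 lower with Aloxe3, beside 7.31% and 5.42% of all tested genes. Of the 16 genes 10 lay above 0 and 6 below. The median log2 fold change was 0.04, beside 0.00 for all tested genes. Ahsg, which encodes fetuin-A, a plasma protein that inhibits the insulin receptor, was at 212, 201 and 200.2 RPKM with β-gal and at 247, 224 and 238 RPKM with Aloxe3. The groups did not overlap, with a fitted log2 difference of 0.21 and an SE of 0.05 (limma, adjusted p = 0.18, and 0.0304 with voom). Grb14, an adaptor that blocks the receptor, was at 3.80, 3.76 and 3.95 RPKM with β-gal and at 4.59, 4.29 and 4.68 RPKM with Aloxe3 (0.19, SE 0.05, adjusted p = 0.209), again without overlap. Ptpn2, a tyrosine phosphatase, was at 0.14 (SE 0.05, adjusted p = 0.315), while its relative Ptpn1, a main phosphatase of the insulin receptor, was at -0.08 (SE 0.03, adjusted p = 0.397).

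Genes that insulin represses and genes that it induces were read separately. Of 9 genes repressed by insulin through FOXO1, 7 were tested, and they went both ways, with 4 above 0 and 3 below. At an unadjusted p of 0.05 from limma, 2 were higher and 1 lower with Aloxe3. The median log2 fold change was 0.13, the highest of the 7 lists, beside 0.00 for all tested genes. The lists were not compared by a test. Mttp, the lipid transfer protein of VLDL assembly, was at 0.15 (SE 0.04, adjusted p = 0.254), Apoc3, an inhibitor of triglyceride clearance, at -0.13 (SE 0.04, adjusted p = 0.295), and Cdkn1b, a cell cycle inhibitor, at 0.18 (SE 0.07, adjusted p = 0.324 from limma). The gluconeogenic genes G6pc and Pck1 had 1 to 10 and 6 to 11 reads per library and were not tested. Of 11 lipogenic genes induced by insulin, 9 were tested, with a median of 0.00. Acly, which makes cytosolic acetyl-CoA, was at -0.09 (SE 0.04, adjusted p = 0.376), Acacb, a carboxylase, at 0.09 (SE 0.05, adjusted p = 0.51) and Me1, which makes NADPH, at -0.07 (SE 0.04, adjusted p = 0.519 from limma).

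**Figure D5:**
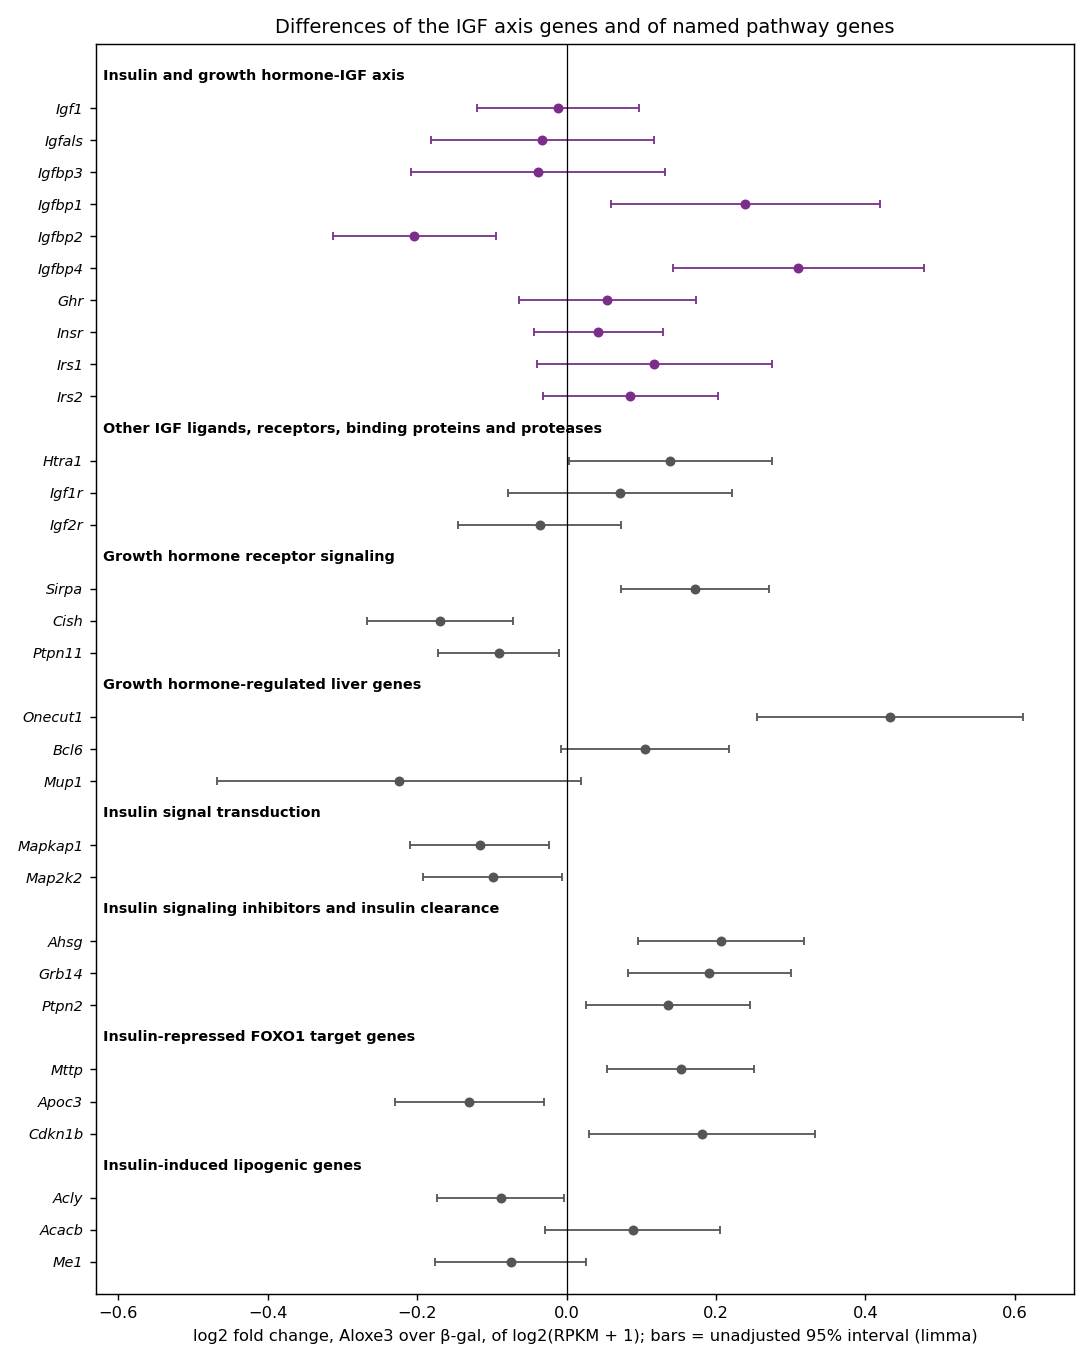
Log2 fold change of log2(RPKM + 1), Aloxe3 over β-gal (x axis), with its unadjusted 95% interval from limma, for the 10 IGF axis genes (purple) and genes among the 3 with the smallest p in each of 7 pathway lists (grey). None of these genes passed an adjusted p of 0.05, and among the 10 the intervals of Igfbp1, Igfbp2 and Igfbp4 exclude 0.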

How the data were processed

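Single-end reads (50 bases) were aligned by the authors to the Ensembl release 76 assembly (GRCm38.p2 in the submitters' notes) with STAR 2.0.4b, and unique, unambiguous reads were counted per gene with featureCounts 1.4.5 (versions from the submitters' processing notes). The authors deposited RPKM values. How counts became RPKM is not given in the sources used here. Symbols and coordinates come from GENCODE M21 (GRCm38), which matched 40340 of 41388 identifiers. Library sizes and reads per gene were derived from the whole-number steps of the RPKM values (within 0.02 of a whole read) and cover 99.9% of each library. For Igfals, Insr and Irs2 the exon length was not the annotated one, so their reads are known up to a common factor. The deposited RPKM values of 12693 genes averaging 0.5 RPKM or more were put on the log2(RPKM + 1) scale and compared with limma 3.58.1 (R 4.3.3) using an eBayes trend. The Benjamini-Hochberg threshold was 0.05. No batch was fitted, since all libraries came from a single sequencing run and the labels name no batch. A batch of another kind that followed the groups could not be told apart from the virus. The labels do not say whether the replicates came from separate animals, so p-values measure the spread between these libraries only, which may be technical. Every replicate pair differed beyond sampling noise (chi-square per degree of freedom 3.47 to 9.82), and intervals on reads would cover counting error only.

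The genes, lists and tests were chosen with earlier results of these data known. Named were the 10 IGF axis genes, in each of 7 pathway lists any gene past the threshold and the 3 with the smallest p, the 3 genes most correlated with Igf1 and with Igfbp1, and Aloxe3. A few genes that this rule names are not reported here. Other named genes (markers, Igf2, Igfbp5, Igfbp7, Socs2, Mup3, Mup20, Foxo1, Akt2, Ptpn1, G6pc, Pck1 and those at 0) had been seen before they were picked. Alternatives were a pseudocount of 0.1, no filter, a filter at 5 RPKM, quantile normalization, rescaling to a common median, eBayes without trend, voom on the derived reads, and each library left out in turn.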

Additional observations from a re-analysis of the deposited data

How the results depend on the processing

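No paired analysis was possible because the groups share no replicate numbers. Of 128 alternative values for the 10 genes, 122 kept their direction and stayed on the same side of the threshold. The exceptions were Igfbp4 with voom (log2 fold change 0.33, past the threshold) and 5 turned signs, all in fits without 1 library, in which the values ranged from -0.053 to 0.020 for Igf1, -0.068 to 0.035 for Igfals and -0.099 to 0.029 for Igfbp3. Among the named pathway genes Igf2r turned as well without Aloxe3 replicate 9, with a range of -0.072 to 0.012. Leaving out 1 library moved further pathway values by over 1.5 times, to 0.082 for Htra1 (Aloxe3 replicate 7), -0.13 and -0.15 for Mup1 (Aloxe3 replicate 9, β-gal replicate 1), 0.117 for Cdkn1b (β-gal replicate 1), -0.040 for Me1 and 0.058 for Acacb (Aloxe3 replicate 8), and to between 0.035 and 0.117 for Igf1r (β-gal replicates 1 and 2, Aloxe3 replicate 8). The count of genes past the threshold, 50 of 12693, was 174 with voom and 7 of 24989 without a filter. It ranged from 6 to 19 in the fits without 1 library, which test fewer samples. With voom 1 growth hormone-regulated gene (Onecut1, below the filter in β-gal cells alone) and 1 insulin signaling inhibitor (Ahsg) passed. The causes were not tested. With Irs1 at 151 to 201 reads and G6pc, Pck1 and Igf2 at 1 to 11, depth limits what can be said of these genes. Irs1 and Irs2 had no value with the filter at 5 RPKM.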

Other observations

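The neighbouring genes Igfbp1 and Igfbp3 were compared within each library after their values had been seen. The ratio of Igfbp1 to Igfbp3 RPKM was 2.49, 2.35 and 2.36 in the β-gal libraries and 2.82, 2.99 and 2.98 in the Aloxe3 libraries (2.40 ± 0.078 and 2.93 ± 0.093, SD, n = 3 each), so that the groups were separate although the levels of both genes overlapped. The ratio of Igf1 to Igfbp3 was 2.08 ± 0.15 and 2.13 ± 0.19 (SD, n = 3 each), with overlapping groups. These ratios were not tested.

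The hepatocyte marker Tat, below the filter on low values, was at 0.193, 0.346 and 0.295 RPKM with β-gal and at 0.635, 0.438 and 0.661 RPKM with Aloxe3, from 15 to 42 reads per library. Cps1 was at 0.915, 0.988 and 1.05 RPKM in the β-gal libraries and at 1.64, 1.29 and 1.56 RPKM in the Aloxe3 libraries, with groups that did not overlap and a fitted log2 difference of 0.33 with an SE of 0.07 (limma, adjusted p = 0.161). Serpina1a and Apoa1 of the same list lay the other way without overlap. Serpina1a was at 53.5, 51.5 and 51.8 RPKM with β-gal and at 48.5, 47.9 and 48.3 RPKM with Aloxe3 (log2 difference -0.11, SE 0.03, limma adjusted p = 0.262), and Apoa1 at 241, 246 and 242 RPKM and at 218, 228 and 235 RPKM (-0.10, SE 0.04, limma adjusted p = 0.349). For Alb, Hnf4a, Cyp2e1 and Apob the groups overlapped.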
